A study of Homo sapiens with 23 samples.

Results

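Genes of intestinal epithelial differentiation were followed through the deposited peak lists, 10 of the 20033 protein-coding genes on chromosomes 1 to 22, X and Y in GENCODE 44: MUC2 and TFF3 of goblet cells, VIL1 and CDHR5 of the brush border, ALPI, SI and FABP1 of absorptive enterocytes, and CDH17, GUCY2C and LGALS4 of intestinal epithelium in general. They were chosen by name. For each gene, the body with 5 kb on both sides (the gene window) was searched in every list for called regions, for the base pairs that these covered, for the rank of the strongest region by p-value, and for a region within 1 kb of the start site of the Ensembl canonical transcript. The question was whether cells treated with a short-chain fatty acid carried more marked regions at these genes than untreated cells, read against the inputs.

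Enterocytes absorb and digest at a membrane of packed microvilli, the brush border, while goblet cells secrete the mucins and trefoil peptides of the mucus layer. Both arise from the same stem cells of the crypt, and colorectal cancers lose these programmes to varying degrees. Propionate and butyrate are made from fibre by gut bacteria. They enter acyl-CoA pools from which histone lysines are propionylated (pr) or butyrylated (bu), and butyrate is also an inhibitor of histone deacetylases and has long been used to differentiate colon cancer cells in culture. Acetylation (ac) of histone lysines marks active promoters and enhancers.

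SW480, an established line of human colorectal adenocarcinoma epithelium, was profiled by chromatin immunoprecipitation and sequencing (ChIP-seq), in which an antibody pulls down the chromatin that carries a mark. Per the labels, all cells were grown in the same serum-containing medium and fixed with formaldehyde. Cells given 10 mM sodium propionate (NaPr) for 12 to 16 h were profiled for H3K18pr, H4K12pr, H3K18ac and H4K12ac, cells given 1 mM sodium butyrate (NaBu) for 12 to 16 h for H3K18bu, H4K12bu, H3K18ac and H4K12ac, and untreated cells for H3K18ac and H4K12ac. Each of these 10 groups had 2 replicates, which gave 20 immunoprecipitated libraries, and 1 input of sheared chromatin came from each condition. The labels do not say whether replicates were separate cultures, so p-values measure the spread between libraries, which may be technical. Acyl marks were not profiled in untreated cells, so a gain of propionylation or butyrylation on treatment could not be measured here.

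The lists differed widely in length, from 8158 regions (H4K12bu replicate 2) to 208823 (untreated H4K12ac replicate 1), and the inputs held 30386 to 93923. In the propionyl lists and in the NaPr and untreated acetyl lists the caller's fold and p-values returned whole fragment counts for all peaks tried, with a background of 3.38 to 8.38 fragments per kb for propionyl and 11.2 to 38.6 for acetyl libraries. In the NaBu libraries at most 2.08% came out whole, so their depth was not recovered. List names carry run tags: propionyl libraries and the NaPr input share one, NaPr and untreated acetyl libraries another, and all NaBu libraries yet another. Differences of propionyl from acetyl and of NaBu from untreated libraries thus cannot be told apart from run. Besides the run tag, the acetyl lists labelled NaBu carry in their names the tag cnt that untreated lists carry. They were grouped by label. Whether they came from NaBu-treated or untreated cells could not be settled here, so every comparison with these lists rests on the labels. The strongest 8158 regions of H3K18ac NaPr replicate 1 overlapped more with untreated acetyl lists than with its own replicate. Their base-pair Jaccard index was 0.512 and 0.507 with untreated H4K12ac replicates 1 and 2. It was 0.416 and 0.472 with untreated H3K18ac replicates 1 and 2, and 0.300 with its own replicate. H4K12pr replicate 2 also came above its own replicate, at 0.318, and H4K12pr replicate 1 was at 0.297. The index was read from H3K18ac NaPr replicate 1 only, and not between other libraries. Start sites of 8 epithelial genes, among them EPCAM and KRT8, were occupied in 4 to 8 cases per immunoprecipitated library, and those of 10 genes of other cell types in 0 to 5.

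The DNA stretches are shown because the results turn on them, all written 5′ to 3′ on the strand of the gene, in lower case, with motif matches in capitals. The first is the stretch upstream of MUC2 that more libraries shared than any other base of its window, and the second is the most shared stretch of VIL1, which lies in intron 1. MUC2 (hg38, chr11:1072780-1073079, plus strand, 300 of the 356 shared bases, 2095 to 1796 bp upstream of the start site) and VIL1 (hg38, chr2:218419268-218419459, plus strand, 145 to 336 bp downstream) read:
MUC2 upstream stretch: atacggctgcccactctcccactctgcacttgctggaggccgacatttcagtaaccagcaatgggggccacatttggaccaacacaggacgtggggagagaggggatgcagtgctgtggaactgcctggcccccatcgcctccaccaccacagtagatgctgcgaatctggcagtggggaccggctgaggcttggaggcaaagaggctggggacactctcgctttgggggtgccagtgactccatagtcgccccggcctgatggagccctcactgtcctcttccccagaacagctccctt
VIL1 intron 1 stretch: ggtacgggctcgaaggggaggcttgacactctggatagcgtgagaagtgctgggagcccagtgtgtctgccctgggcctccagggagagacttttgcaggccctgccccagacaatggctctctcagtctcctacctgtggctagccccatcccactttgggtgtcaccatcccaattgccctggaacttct
The other 3 are the 250 bases before the RefSeq start (GRCh38.p14) of MUC2, whose start site was marked in most groups, and of ALPI and SI, which were marked in almost none. RefSeq promoters were at hand for 5 members (FABP1, ALPI, SI, MUC2 and LGALS4). They are chr11:1074624-1074873 on the plus strand for MUC2, chr2:232455903-232456152 on the plus strand for ALPI and chr3:165078497-165078746 on the minus strand for SI.
MUC2 promoter: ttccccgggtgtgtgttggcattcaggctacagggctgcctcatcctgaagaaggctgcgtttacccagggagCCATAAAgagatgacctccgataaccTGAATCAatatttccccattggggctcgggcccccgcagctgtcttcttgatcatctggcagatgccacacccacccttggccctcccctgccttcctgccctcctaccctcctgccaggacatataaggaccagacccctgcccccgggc
ALPI promoter: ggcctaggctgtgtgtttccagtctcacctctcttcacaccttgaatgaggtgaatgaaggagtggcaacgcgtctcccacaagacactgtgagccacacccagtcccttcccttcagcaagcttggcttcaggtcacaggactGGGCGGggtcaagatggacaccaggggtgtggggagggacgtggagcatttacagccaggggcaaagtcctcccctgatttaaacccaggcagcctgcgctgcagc
SI promoter: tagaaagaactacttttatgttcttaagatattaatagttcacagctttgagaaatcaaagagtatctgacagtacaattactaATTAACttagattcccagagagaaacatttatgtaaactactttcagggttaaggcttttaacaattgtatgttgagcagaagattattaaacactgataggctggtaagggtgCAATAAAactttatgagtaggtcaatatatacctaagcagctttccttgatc
Letters were searched on both strands. The CDX motif (TTTATNG), named for the homeobox factors that drive intestinal identity, was found in the promoters of FABP1, SI and MUC2, 3 of 5, against 8.93% of 35116 promoters of the same length. The HNF1 half-site (GTTAAT) was found in FABP1 and SI (6.23% of promoters), the TATA box (TATAAA) in FABP1 (10.7%), the AP-1 motif (TGANTCA) in MUC2 (6.57%), the GC box of SP and KLF factors (GGGCGG) in ALPI (42.6%), and the HNF4 direct repeat (CAAAGTCCA) in none (0.325%). The MUC2 and VIL1 stretches held none of the motifs. Of 76888 regions of untreated H3K18ac replicate 1 taken at 300 bases around their middle, from 0.377% (HNF4) to 20.5% (GC box) held each of them. A match is a run of letters and not a bound site.

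The members were marked very unevenly. The 20 immunoprecipitated lists held 437 regions in the 10 windows, with 107 at CDHR5, 84 at MUC2, 83 at VIL1 and 60 at LGALS4, against 7 at SI and 2 at ALPI. A start site was occupied in 47 of 200 combinations of gene and library. VIL1 and MUC2 were occupied in 12 libraries each, CDHR5 in 11, LGALS4 and TFF3 in 3 each, FABP1 and GUCY2C in 2 each, ALPI and CDH17 in 1 each, and SI in none. No member's start site was occupied in an input. The share of members with an occupied start site was below that of all protein-coding genes in 19 of 20 libraries and above it in 1, H3K18ac NaBu replicate 1, where 8 of 10 members were occupied against 61.0% of all genes. The base held by the most libraries in a member's window was held by a median of 7.5 libraries, against 11 over all protein-coding genes.

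**Figure D1:**
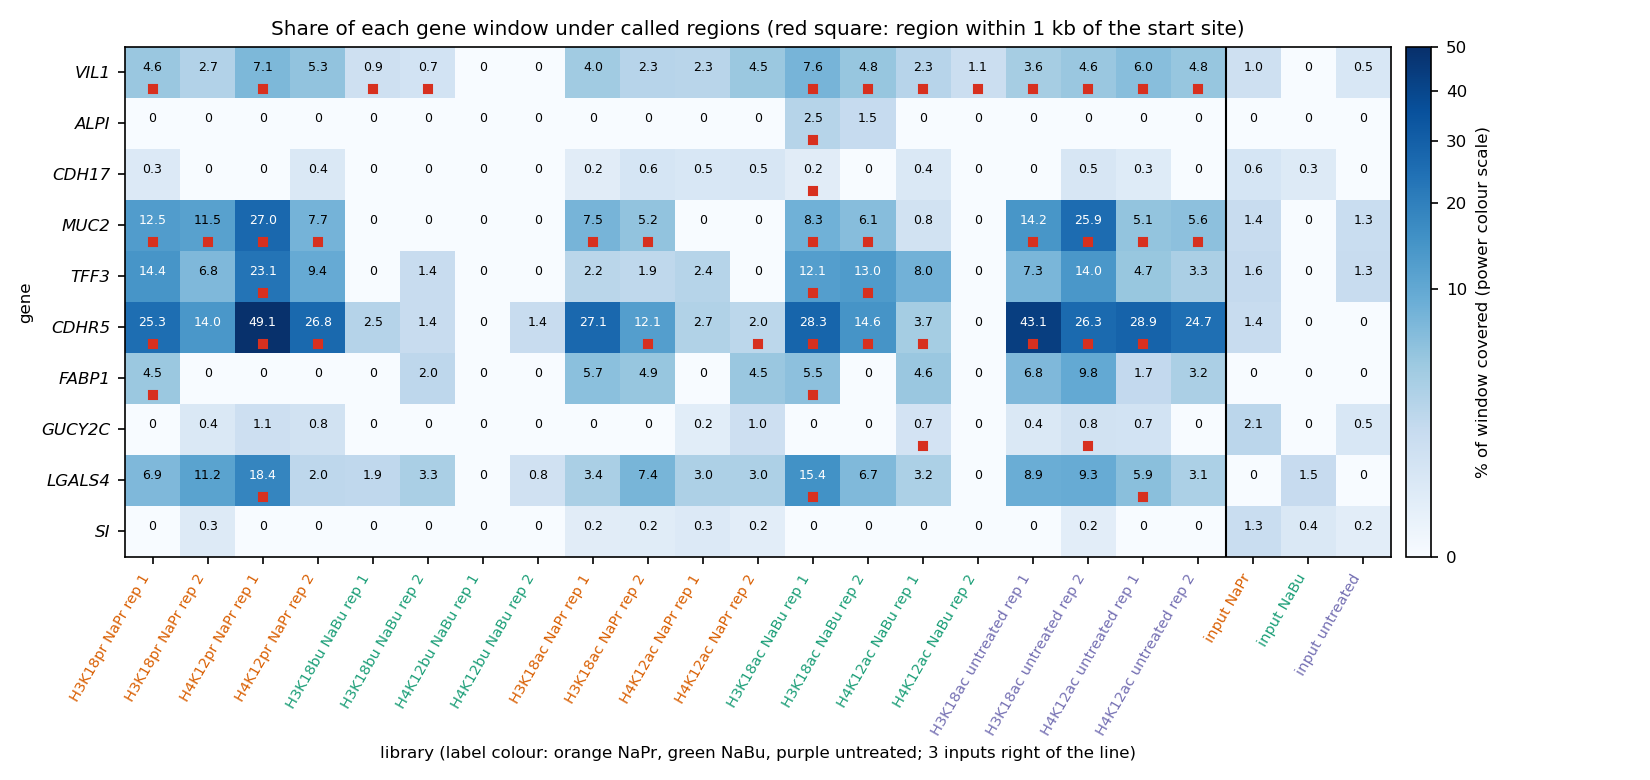
Percentage of each gene window (gene body with 5 kb on both sides) under called regions in the 20 immunoprecipitated libraries and 3 inputs, with red squares where a region lay within 1 kb of the start site. MUC2, TFF3, CDHR5 and LGALS4 were covered most, up to 49.1% for CDHR5 in H4K12pr replicate 1, while ALPI, SI, CDH17 and GUCY2C stayed at or below 2.45% in every immunoprecipitated library.

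**Figure D2:**
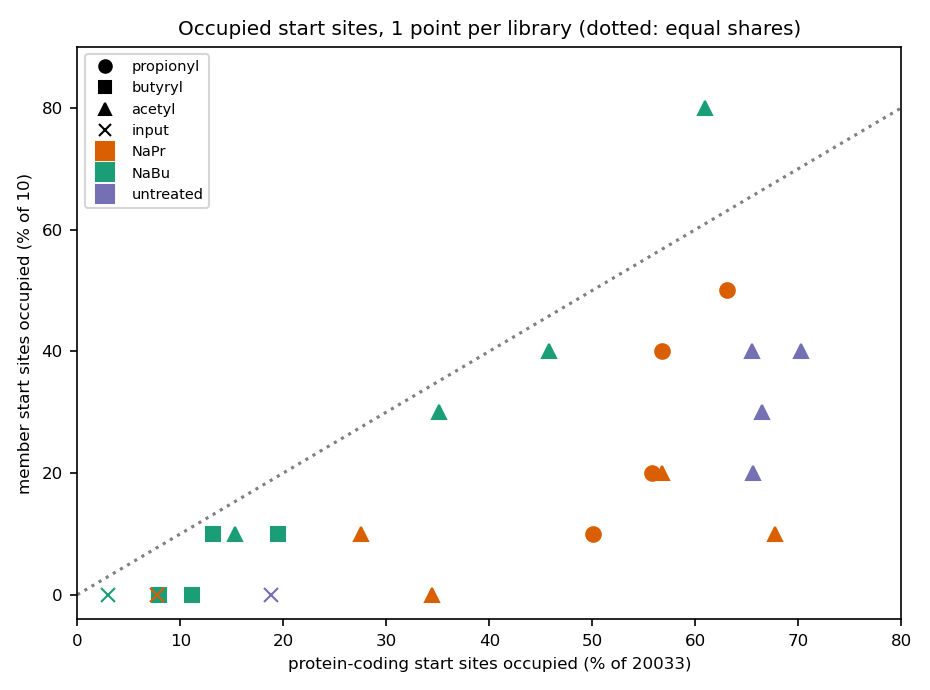
Percentage of the 10 member start sites (vertical) and of all 20033 protein-coding start sites (horizontal) with a region within 1 kb, 1 point per library, with the dotted line at equal shares. One library, H3K18ac NaBu replicate 1 at 80% of members, lies above the line.

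MUC2 encodes the gel-forming mucin of intestinal mucus (hg38, chr11:1074875-1110511, plus strand, window of 45637 bp). Regions covered 12.5 and 11.5% of its window in the 2 H3K18pr libraries and 27.0 and 7.73% in H4K12pr. Untreated cells had 14.2 and 25.9% under H3K18ac regions and 5.06 and 5.58% under H4K12ac regions. NaPr cells had 7.54 and 5.17% for H3K18ac and 0% in both H4K12ac libraries. The NaBu H3K18ac libraries had 8.27 and 6.12% and the NaBu H4K12ac libraries 0.78 and 0%, and no butyryl library held a region. All 4 propionyl libraries were thus covered where neither H4K12ac library of NaPr cells was. The shared stretch upstream (the first sequence above) was inside a region in 13 of 20 libraries and in no input. It was missing in the 4 butyryl libraries, both H4K12ac NaPr libraries and H4K12ac NaBu replicate 2. Of all protein-coding genes, 37.7% had a base shared by as many libraries. The strongest MUC2 region ranked within the top 0.65 and 0.56% of the list in H4K12pr and 1.47 and 1.05% in H3K18pr. Its rank was 4.68 and 4.98% in untreated H3K18ac, 3.14 and 3.73% in untreated H4K12ac and 8.09 and 12.6% in NaPr H3K18ac. In H3K18ac NaBu it was 11.2 and 54.9%. The regions over that stretch had folds over background of 29.7 and 22.6 (H3K18pr), 18.7 and 22.1 (H4K12pr), 20.1 and 7.78 in untreated H3K18ac, and 3.38 and 3.32 in NaPr H3K18ac. A region of the untreated input (3574 to 3198 bp upstream) overlapped the 3528 bp region of H4K12pr replicate 2. It also overlapped regions of H4K12pr replicate 1 and of both H3K18pr, both untreated H3K18ac and both NaBu H3K18ac libraries. Among these were the strongest MUC2 regions of H3K18pr replicate 1, of both untreated H3K18ac libraries and of NaBu H3K18ac replicate 1.

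TFF3 encodes a trefoil peptide secreted with the mucins (chr21:42311667-42315409, minus strand, window of 13743 bp). Its window was covered to 14.4 and 6.80% by H3K18pr, 23.1 and 9.37% by H4K12pr, 7.30 and 14.0% in untreated H3K18ac and 4.69 and 3.27% in untreated H4K12ac. Coverage was 2.23 and 1.91% in NaPr H3K18ac, 2.44 and 0% in NaPr H4K12ac, 12.1 and 12.99% in NaBu H3K18ac and 8.03 and 0% in NaBu H4K12ac. H3K18bu held 0 and 1.43%, H4K12bu none. Where in the window the regions lay differed. The stretch shared by most libraries lay downstream of the gene, 5767 to 5888 bp from the start site, in 8 libraries that included all 4 untreated acetyl ones, and a region of the untreated input (5619 to 5802 bp) overlapped it. A region within 1 kb of the start site was held by both H3K18ac NaBu libraries, with folds of 4.66 and 2.59, and by neither untreated H3K18ac library. That of replicate 1 reached the start site. That of replicate 2 ended 2 bp upstream of it and ranked at 87.9% of its list. The only other library with TFF3 occupied was H4K12pr replicate 1. The same 2 H3K18ac NaBu libraries held regions around 2 kb upstream, at folds of 9.16 and 4.96, where untreated H3K18ac replicate 2 held 1 short region at a fold of 2.68. Regions there were also held by NaPr H3K18ac replicate 2 (3.27), H4K12pr replicate 2 (4.10), NaBu H4K12ac replicate 1 (3.49) and untreated H4K12ac replicate 1 (2.04). Folds of different lists, whose inputs and depths differ, are given side by side.

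VIL1 encodes villin, the actin-bundling protein of microvilli (chr2:218419121-218453295, plus strand, window of 44175 bp that also meets USP37). All 4 untreated acetyl libraries and all 4 NaBu acetyl libraries held a region within 1 kb of its start site, and none of the 4 NaPr acetyl libraries did. Both H3K18bu libraries, replicate 1 of H3K18pr and replicate 1 of H4K12pr also held one, and no H4K12bu library did. The region of untreated H4K12ac replicate 1 lay 913 to 1133 bp downstream, only partly within 1 kb. Near the start site the strongest region of the H3K18ac NaBu lists had folds of 7.65 and 9.61 (ranks of 9.52 and 8.80% of the list), against 3.50 and 3.66 in untreated H3K18ac, where those regions ranked 39184 of 76888 and 26158 of 155103. These folds come from lists with different inputs and depths and are given side by side. The most shared stretch, printed above, was held by 9 libraries: both H3K18bu, all 4 NaBu acetyl, both untreated H3K18ac and H3K18pr replicate 1. Across the whole window coverage was 7.59 and 4.77% in NaBu H3K18ac, 3.62 and 4.59% in untreated H3K18ac and 4.01 and 2.34% in NaPr H3K18ac. Both NaBu libraries lay above the other 4, by little for replicate 2, and the untreated and NaPr values overlapped.

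**Figure D3:**
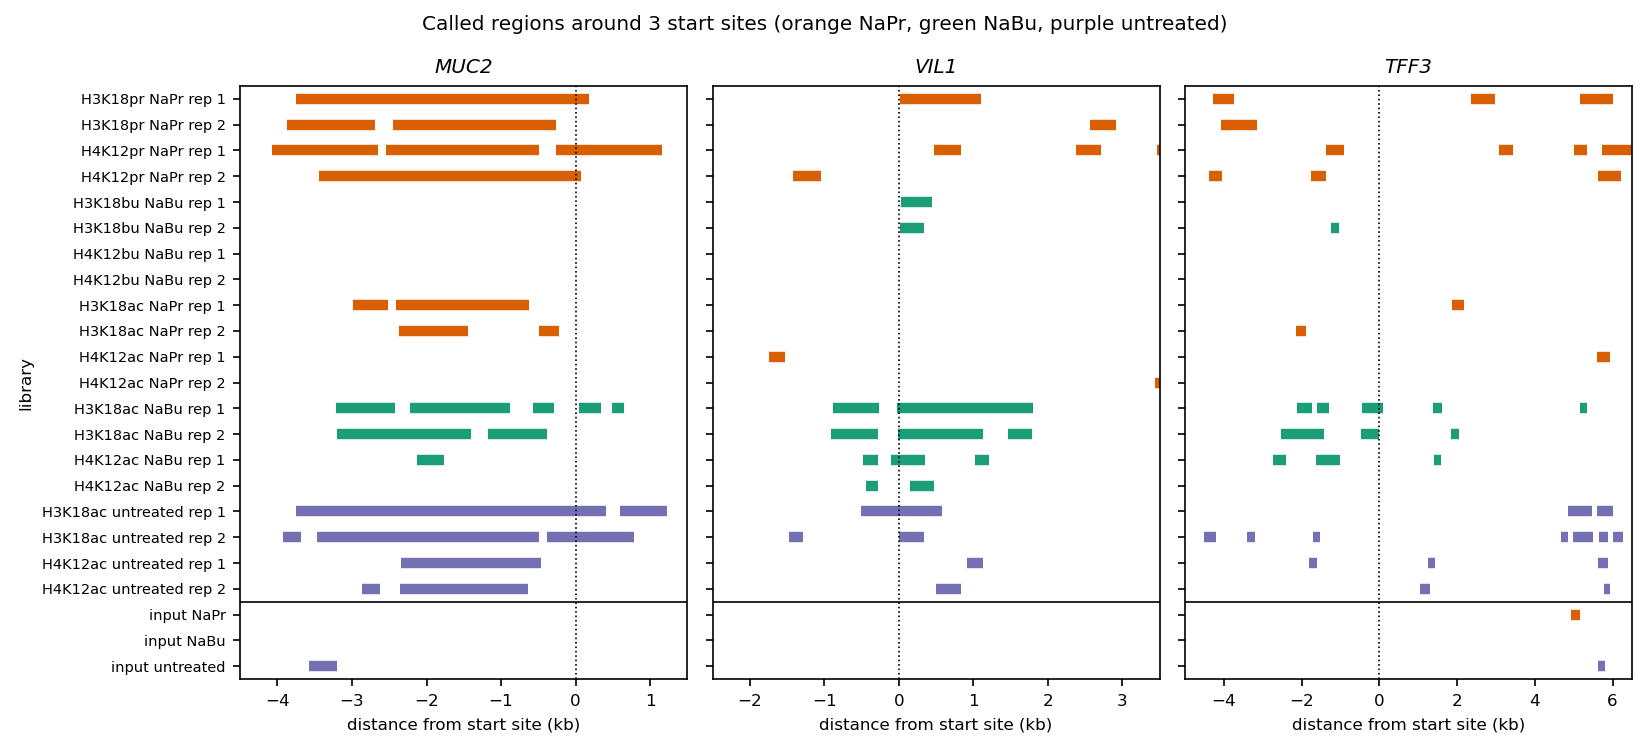
Called regions around the start sites of MUC2, VIL1 and TFF3 in each library, by distance from the start site in kb (negative is upstream), with the inputs under the line. The MUC2 block upstream is present in 13 of 20 libraries, the VIL1 start site is empty in the 4 NaPr acetyl libraries, and the TFF3 start site is filled in both H3K18ac NaBu libraries.

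CDHR5 encodes a protocadherin that joins microvillus tips (chr11:616577-626078, minus strand, window of 19502 bp). It was the most covered member, at 25.3 and 14.0% for H3K18pr, 49.1 and 26.8% for H4K12pr, 43.1 and 26.3% in untreated H3K18ac and 28.9 and 24.7% in untreated H4K12ac. Coverage was 27.1 and 12.1% in NaPr H3K18ac and 28.3 and 14.6% in NaBu H3K18ac, but 2.74 and 2.03% in NaPr H4K12ac and 3.68 and 0% in NaBu H4K12ac. H3K18bu held 2.49 and 1.43% and H4K12bu 0 and 1.38%. The window is shared with PHRF1, IRF7 and SCT. The start site of SCT lies 2226 bp upstream of that of CDHR5 and the start site of IRF7 9005 bp downstream, and 34 of the 107 regions came within 1 kb of one of them, while 33 touched the CDHR5 body. The most shared stretch lay 4341 to 4179 bp upstream, in 16 of 20 libraries and no input.

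FABP1 binds fatty acids in the enterocyte cytoplasm (chr2:88122982-88128062, minus strand, window of 15081 bp). Its regions did not centre on the start site but about 2 kb upstream: the stretch 2065 to 1952 bp upstream was held by all 4 untreated acetyl libraries, both NaPr H3K18ac libraries and NaPr H4K12ac replicate 2, and by no NaBu, propionyl or input library. Next to that short stretch, H3K18pr replicate 1 held a region 1933 to 1594 bp upstream and NaBu H4K12ac replicate 1 one 2403 to 2186 bp upstream. Both overlapped the untreated H3K18ac regions over the stretch, and neither passed a q-value of 0.05. The fold of the region over the stretch was 6.09 and 2.58 in untreated H3K18ac, 2.67 and 3.21 in untreated H4K12ac, and 2.55 and 2.20 in NaPr H3K18ac. Whole-window coverage was 6.81 and 9.81% in untreated H3K18ac, 5.73 and 4.85% in NaPr H3K18ac and 5.52 and 0% in NaBu H3K18ac. Both untreated values lay above the 4 treated ones, and NaPr and NaBu values overlapped. LGALS4, a galectin of the enterocyte membrane (chr19:38801671-38812945, minus strand, window of 21275 bp, shared with ECH1 and ENSG00000268083), was covered over 0 to 18.4% in single libraries, with its most shared stretch 12784 to 12796 bp downstream of the start site in 12 libraries. Its start site was occupied in 3 libraries of 3 different groups, so in no group in both replicates.

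ALPI, SI, CDH17 and GUCY2C carried little that recurred. ALPI, intestinal alkaline phosphatase of the brush border (chr2:232456125-232460753, plus strand), held 1 region in each H3K18ac NaBu library and none in the other 18 or in an input. The 2 regions did not overlap: replicate 1 had its region 499 to 141 bp upstream with a fold of 3.24, and replicate 2 had it 2240 to 2015 bp upstream with a fold of 3.42. Neither passed a q-value of 0.05. SI, the sucrase-isomaltase of the brush border (chr3:164978898-165078496, minus strand), held 7 regions over 20 libraries and 8 over 3 inputs, and no base was shared by 2 libraries. CDH17, liver-intestine cadherin (chr8:94127162-94217303, minus strand), held 14 regions and 4 in the inputs, and the only base shared by 2 libraries lay in a stretch 45009 to 45219 bp downstream, in both NaPr H3K18ac libraries. GUCY2C, the receptor for guanylin peptides (chr12:14612632-14696599, minus strand), held 18 regions and 10 in the inputs, and its 2 occupied start sites were in untreated H3K18ac replicate 2 and NaBu H4K12ac replicate 1. Per 10 kb of window and library the rate was 0.0958 regions for GUCY2C against 0.355 in the inputs, 0.0319 against 0.243 for SI and 0.0699 against 0.133 for CDH17. For the other members apart from ALPI the rate ran from 0.696 (FABP1) to 2.74 (CDHR5), above that of the inputs at 0 and 0.171.

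To compare groups, covered base pairs were tested with limma on log2(bp + 100), all 20 libraries in 1 fit, with Benjamini-Hochberg adjustment over the 18849 protein-coding genes covered in at least 2 libraries. All 10 members passed that filter. ALPI did so only through the 2 H3K18ac NaBu libraries, so its calls in comparisons with that group are no independent support. A start site counted as held by one group only when its 2 replicates had a region there and those of the compared group had none, which has no test with 2 libraries against 2. Covered base pairs follow list length, so the median of all genes is given beside each comparison. Scaling also moved the direction of calls over all genes. With libraries centred on their median, 562 genes were higher and 568 lower for H4K12ac NaPr against untreated (85 and 3162 as reported), 76 and 90 for H3K18ac NaBu (24 and 527) and 3096 and 610 for H4K12ac NaBu (22 and 12900). The same centring gave 1070 higher and 1078 lower for H4K12pr against H4K12ac (4558 and 154) and 5934 and 122 for H3K18bu against H3K18ac (1 and 7607). With libraries scaled to equal total coverage the counts were 37 and 172 for H4K12ac NaPr, 25 and 71 for H3K18ac NaBu, 484 and 2164 for H4K12ac NaBu and 409 and 93 for H4K12pr.

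NaPr against untreated cells gave no member a gained mark at its start site. For H3K18ac, limma called 0 members and 0 genes in all (0% higher and 0% lower), with 501 genes and 1 member, GUCY2C, at an unadjusted p under 0.05. The median difference was -0.69 over members and -0.18 over all genes. MUC2 was lower with equal numbers of regions (-5.18, adjusted p = 3.04e-05, limma), where 70 of 10897 genes were higher and 619 lower. The VIL1 start site was occupied in untreated cells only (1 of 10 members, against 1.19% of all genes), and no member in NaPr cells only (0.389% of genes). Without NaPr replicate 2, or without untreated replicate 1, 2 members were occupied in untreated cells only, and without NaPr replicate 1 that count stayed at 1. For H4K12ac, 2 members fell and none rose, against 16.8% of genes lower and 0.451% higher. MUC2 covered 0 bp in both NaPr libraries against 2310 and 2545 bp in untreated ones, a difference of -4.66 on the log2 scale (SE 0.79, adjusted p = 0.00186). CDHR5 covered 535 and 395 bp against 5643 and 4814 (-3.24, SE 0.88, adjusted p = 0.0194). SI covered 378 and 193 bp against 0 and 0 (1.90, SE 0.71) and did not pass (adjusted p = 0.0685), but was called higher without the filter on low coverage (0.0479), with libraries centred on their median (0.0404) and with the 4 libraries of the comparison alone (0.0302). The 3 NaPr regions behind it lay in different places, and the NaPr input held 5 in the same window. The median was -0.57 over members and -1.33 over all genes. With libraries scaled to equal total coverage the adjusted p of limma rose to 0.0615 for MUC2 (-3.21) and to 0.55 for CDHR5. CDHR5 also lost its call without any 1 of the 4 libraries, with equal numbers of regions, with 1 kb flanks and with libraries centred on their median. Start sites of VIL1 and MUC2 were occupied in untreated cells only (2 of 10, against 24.5% of genes) and none in NaPr cells only (0.275%). The 2 of 10 lies near the background share.

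Against untreated cells, H3K18ac in cells labelled NaBu had 1 member start site held by NaBu cells only, TFF3. The 1 member called higher in covered base pairs, ALPI, passed the filter only through these NaBu libraries. H4K12ac was lower at 3 members, a smaller share than over all genes. For H3K18ac, TFF3 was the 1 member with a start site occupied in NaBu cells only, against 0.444% of genes, and no member was occupied in untreated cells only (6.86% of genes). Without NaBu replicate 2 the count was 5, and with regions at q under 0.05 it was 0, since the TFF3 promoter region of NaBu replicate 2 did not pass. By covered base pairs ALPI rose by 1.95 on the log2 scale (SE 0.52, adjusted p = 0.0479), from 0 bp in both untreated libraries to 359 and 226 bp, 1 of 10 members against 0.127% of genes higher, and no member fell (2.8% of genes). That call rests on the 2 small regions described above and on all 4 libraries: without untreated replicate 1 or 2 the adjusted p was 0.177 and 0.257, and without either NaBu replicate ALPI failed the filter. With regions at q under 0.05 ALPI was not tested, and 2 members were lower and none higher, FABP1 (-2.87, adjusted p = 0.00906) and MUC2 (-2.52, adjusted p = 0.0198). With equal numbers of regions MUC2 was lower (-5.18, adjusted p = 1.94e-05) and none was higher. For TFF3 the difference over the whole window was 0.29 and for VIL1 0.54, and neither passed. The median was -0.60 over members and -0.99 over all genes. For H4K12ac, CDHR5 (717 and 0 bp against 5643 and 4814, difference -4.22, SE 0.88, adjusted p = 0.000865), MUC2 (356 and 0 against 2310 and 2545, -3.56, SE 0.79, adjusted p = 0.00126) and VIL1 (1034 and 506 against 2668 and 2113, -1.58, SE 0.68, adjusted p = 0.0474) were lower, 3 of 10, against 68.4% of genes lower and 0.117% higher. The medians were -0.80 for members and -2.86 for all genes. NaBu replicate 2 held 11680 regions and was covered at 1 member, and NaBu replicate 1 at 8. With libraries centred on their median, VIL1 turned to 1.83 higher (adjusted p = 0.0385) and 6 members were called, all of them higher, among them ALPI and SI, which covered 0 bp in all 4 libraries, and with equal total coverage no member was called. Without NaBu replicate 1, 5 members were called. Without NaBu replicate 2, VIL1 was lost (adjusted p = 0.208), as it was without untreated replicate 1 (0.174) or 2 (0.0975). The MUC2 start site was occupied in untreated cells only (1 of 10 against 28% of genes, 2 without untreated replicate 2) and none in NaBu cells only (0.0499%), though 1 without NaBu replicate 2.

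In NaPr cells, 3 of 10 members were called higher for propionyl than for acetyl marks at H4K12, near the share of 24.2% over all genes. None was called at H3K18, where 1 gene in all was. For H3K18pr against H3K18ac, limma called 0 members, none at an unadjusted p under 0.05, and 1 gene in all (0.00531% higher, 0% lower, with 1305 genes at an unadjusted p under 0.05). MUC2 was higher in H3K18pr with equal numbers of regions (4.93, adjusted p = 9.8e-05), where 455 of 10897 genes were higher and 607 lower. No member start site was held by one mark only (0.574% of genes for H3K18pr only and 4.61% for H3K18ac only). Without H3K18pr replicate 2, 2 were occupied in H3K18pr only. For H4K12pr against H4K12ac, MUC2 covered 12323 and 3528 bp against 0 and 0, a difference of 6.07 (SE 0.79, adjusted p = 0.000291). CDHR5 covered 9567 and 5226 bp against 535 and 395 (3.68, SE 0.88, adjusted p = 0.00707), and TFF3 3176 and 1288 bp against 336 and 0 (3.35, SE 1.05, adjusted p = 0.0266). These 3 of 10 members were higher and none lower, against 24.2% of genes higher and 0.817% lower. SI (0 and 0 bp against 378 and 193) differed by -1.90 (SE 0.71, adjusted p = 0.0562) and was called lower with the replicate block (0.0476), without the filter on low coverage (0.0385) and with libraries centred on their median (0.0250). The median was 0.83 over members and 1.36 over all genes. MUC2 kept its call with libraries scaled to equal total coverage but not without regions over input peaks (3.17, adjusted p = 0.108), where the single region of H4K12pr replicate 2 drops out. CDHR5 and TFF3 lost theirs without H4K12pr replicate 1, without H4K12ac replicate 2 and at equal total coverage. CDHR5 also lost its call with equal numbers of regions. TFF3 also lost its call with 1 kb flanks, with libraries centred on their median and with the 4 libraries of the comparison alone. The MUC2 start site was the 1 member occupied in H4K12pr only (18.3% of genes), with 4 without H4K12pr replicate 2 and 2 without H4K12ac replicate 2, and none was in H4K12ac only (0.584%). At MUC2 the propionyl-minus-acetyl difference was larger at H4K12 than at H3K18 by 5.15 on the log2 scale (SE 1.12, adjusted p = 0.0175, limma), 1 of 10 members against 6.48% of genes with a positive and 0.297% with a negative difference. That call was lost without H3K18ac NaPr replicate 1 (4.88), the library nearer to untreated acetyl lists than to its own replicate. It was also lost without H3K18pr replicate 2 (5.09), H4K12pr replicate 1 (4.26) or H4K12ac replicate 2 (5.15). The same difference did not pass at CDHR5 (3.62, SE 1.25, adjusted p = 0.0752) or TFF3 (1.42, SE 1.48, adjusted p = 0.515).

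The butyryl lists were short, and 3 and 5 members held an H3K18bu region, against 38.2 and 35.6% of all genes, and 0 and 2 an H4K12bu region, against 23.6 and 21.0%. VIL1, CDHR5 and LGALS4 held H3K18bu regions in both replicates, and the share of all genes that did so was not read. None of these 3 members had a region at q under 0.05 in both replicates. The CDHR5 regions lay 4541 to 4056 and 4341 to 4064 bp upstream of its start site, outside the gene body. The CDHR5 window was covered more than 90.4 and 87.1% of genes in the H3K18bu lists, that of LGALS4 more than 87.2 and 95.2% and that of VIL1 more than 78.8 and 78.7%. For H3K18bu against H3K18ac in NaBu cells, MUC2 (0 and 0 bp against 3776 and 2792, -5.07, SE 0.79, adjusted p = 0.00173), TFF3 (0 and 197 against 1662 and 1785, -3.40, SE 1.05, adjusted p = 0.0186), CDHR5 (486 and 278 against 5521 and 2849, -3.11, SE 0.88, adjusted p = 0.0133), VIL1 (416 and 325 against 3354 and 2107, -2.56, SE 0.68, adjusted p = 0.0102) and ALPI (0 and 0 against 359 and 226, -1.95, SE 0.52, adjusted p = 0.00992) were lower, 5 of 10 and none higher, against 40.4% of genes lower and 0.00531% higher. The 5 of 10 lies near the background share, and ALPI among them passed the filter only through the H3K18ac libraries compared here. The median was -1.90 over members and -1.92 over all genes. The butyryl lists held 22059 and 22497 regions and the acetyl lists 116459 and 60344. Without H3K18ac replicate 1 no member was called, and without H3K18bu replicate 2 the count was 2. With libraries centred on their median the differences of VIL1, CDHR5 and ALPI turned positive, at adjusted p of 0.328, 0.783 and 0.232. Under that centring GUCY2C (3.33, adjusted p = 0.0209) and SI (3.33, adjusted p = 0.0200), which covered 0 bp in all 4 libraries, were called higher, and MUC2 was called lower. Start sites of MUC2, TFF3 and CDHR5 were occupied in H3K18ac only (3 of 10, against 22.7% of genes, and 7 without H3K18ac replicate 2) and none in H3K18bu only (0.025%). For H4K12bu against H4K12ac, VIL1 alone was lower (0 and 0 bp against 1034 and 506, -3.05, SE 0.68, adjusted p = 0.0381), 1 of 10 against 2.08% of genes, and none was higher (0% of genes). The call was lost without H4K12bu replicate 1 or 2 (adjusted p of 0.0901 and 0.15) and without H4K12ac replicate 1 (0.28), and 4 members were called without H4K12ac replicate 2. The VIL1 start site was the 1 member occupied in H4K12ac only (4.76% of genes, and 3 members without H4K12ac replicate 2), and none was in H4K12bu only (0.0699%).

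**Figure D4:**
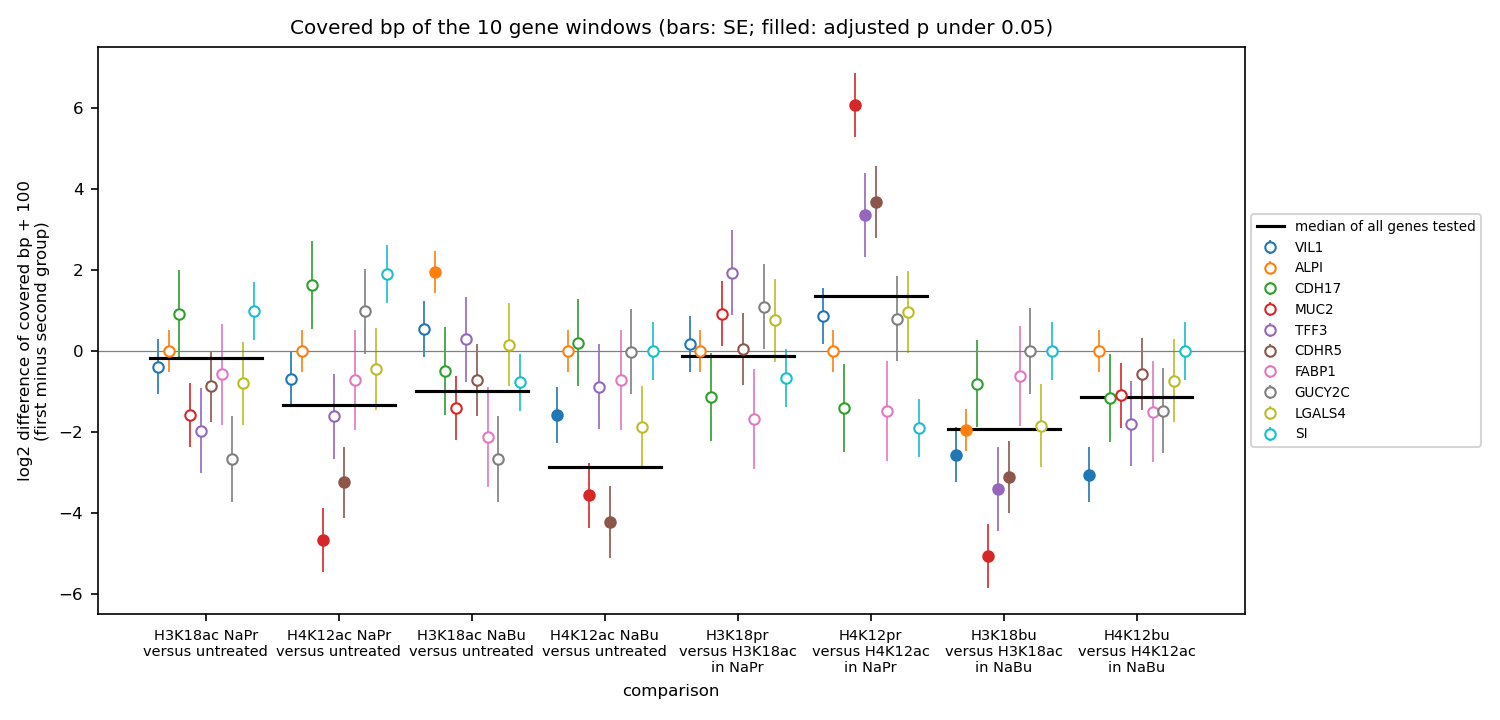
Log2 differences of covered bp + 100 for the 10 members in the 8 comparisons, first group minus second, with SE bars, filled where the adjusted p of limma was under 0.05, and black lines at the median of all 18849 genes tested. MUC2 ran from -5.07 (H3K18bu against H3K18ac) to 6.07 (H4K12pr against H4K12ac).

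Other genes of the differentiation programmes were read from 3 longer lists in the same fits, to be set against 24.2% of all genes higher and 0.817% lower for H4K12pr, 40.4% lower for H3K18bu, 16.8% lower and 0.451% higher for H4K12ac NaPr, 68.4% lower for H4K12ac NaBu, 2.8% lower for H3K18ac NaBu and 2.08% lower for H4K12bu. Of 28 brush border and absorptive genes, 27 were tested. NaPr against untreated called 1 lower for H4K12ac (ESPN, an actin bundler of microvilli) and 0 for H3K18ac, and NaBu against untreated called 11 lower for H4K12ac and 0 for H3K18ac. In the same list H4K12pr against H4K12ac called 4 higher and 1 lower, H3K18bu against H3K18ac 11 lower and H4K12bu against H4K12ac 1 lower (CDHR2). Of 20 goblet genes, H4K12ac fell at 4 and rose at 1 in NaPr cells and fell at 12 in NaBu cells. H3K18ac fell at 1 in NaBu cells, MUC5AC, a gel-forming mucin (-4.17, SE 1.02, adjusted p = 0.0358, limma). In all, 9 were higher in H4K12pr than in H4K12ac, led by BEST2 (4.91), MUC17 (3.68) and MUC5B (4.15), and 9 were lower in H3K18bu than in H3K18ac. Of 17 colonocyte genes, H4K12ac rose at 1 in NaPr cells (MS4A12) and fell at 6 in NaBu cells. H4K12pr against H4K12ac called 2 higher and 1 lower, and H3K18bu against H3K18ac 6 lower. The goblet median of 2.09 for H4K12pr against H4K12ac stood beside 1.36 for all genes. The brush border median of 1.20 and the colonocyte median of 0.69 lay below that of all genes. Markers of other cell types moved the same way in that comparison (3 of 8 tested higher, COL1A1, CD14 and INS, none lower, median 1.49), as did epithelial markers (3 of 8 higher, none lower, median 1.40), and their part in the goblet values was not tested. Start sites occupied in H3K18ac NaBu libraries and in neither untreated one were found at DPP4, a brush border peptidase, and MYO7B, a myosin of microvillus tips, 2 of 28 against 0.444% of all genes, and at no goblet or colonocyte gene of these lists. Held by untreated H3K18ac only were ANPEP, a brush border peptidase (1 of 28), and SELENBP1 (1 of 17 colonocyte genes), against 6.86% of all genes.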

How the data were processed

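The deposited files were peak lists, 1 per library. Per the methods and the list names, the authors aligned reads to hg38 and called peaks with MACS2 against input at a p-value of 0.01, library by library, and removed blacklisted regions. The submitters' processing notes name bcl2fastq 2.17.1, cutadapt 1.8.1, Bowtie2 2.3.1 and MACS2 2.1.0. Each deposited region carries a fold enrichment (a ratio of pileup over local background) and a −log10 p-value and −log10 q-value from the caller, used here only to describe, rank and filter regions within a list. The control of the 3 input lists is not given in the sources used here. In the NaBu lists few peaks gave whole fragment counts.

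No region of the 2187390 ran past a chromosome end of the reference build hg38, and gene models were those of GENCODE 44. Regions of a list never overlapped, and an overlap of at least 1 bp counted. The 8 comparisons were fitted with limma 3.58.1 in R 4.3.3 with a trend, on 10 groups, a pseudocount of 100 bp and genes covered in at least 2 libraries. A call needed an adjusted p under 0.05. The test was tried on simulated data with 200 changed genes. The alternatives are under how the results depend on the processing. The comparison of effects between H4K12 and H3K18, its fits without single libraries, and scaling to equal total coverage, were added after seeing the data. Fragment counts were recovered from fold and p within 0.002 of −log10 p, over peaks with a −log10 p of at most 15.

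Genes were named by rule: all 10 members, with differences and errors for those called; of the other lists, at most 3 genes per list and comparison with the smallest adjusted p, and start sites held by one group only where a list had at most 3. The members and lists were chosen with earlier results of these data known. Counts of regions are not molecules, and list length sets how many genes can be covered. Not analysed here were reads. Promoter sequences came from RefSeq (GRCh38.p14). Promoters of VIL1, CDH17, TFF3, CDHR5 and GUCY2C were not used here.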

Additional observations from a re-analysis of the deposited data

Results flagged for a closer look

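One result met the rule for a difference between histone sites. At MUC2 the difference between propionyl and acetyl marks in NaPr cells was larger at H4K12 than at H3K18 by 5.15 on the log2 scale of covered bp + 100 (SE 1.12, adjusted p = 0.0175, limma over 18849 genes). The propionyl libraries were covered at both sites, with 5726 and 5267 bp for H3K18pr and 12323 and 3528 bp for H4K12pr. The acetyl libraries held 3441 and 2360 bp for H3K18ac and 0 and 0 bp for H4K12ac. The site difference was read after the data were seen, and propionyl and acetyl libraries carry different run tags, whose part in the result was not tested. MUC2 was also higher in H3K18pr than in H3K18ac with the strongest 8158 regions of each list (4.93, adjusted p = 9.8e-05, limma), against 0.92 as reported. The site difference was not refitted with those regions. Its H4K12 part, H4K12pr against H4K12ac, lost its call without regions over input peaks (adjusted p = 0.108, limma). The call was lost without H3K18ac NaPr replicate 1 (4.88, adjusted p = 0.0896), the library whose strongest regions overlapped more with untreated H4K12ac replicate 1 than with its own replicate, and the adjusted p ran from 0.00953 to 0.107 over the 8 libraries left out in turn. With 2 libraries in each group, no test for outlying values was made within groups.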

How the results depend on the processing

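Counts of calls moved with list length, and the cause was not tested. Covered-bp calls are given as members and then all protein-coding genes, in the order H3K18ac NaPr, H4K12ac NaPr, H3K18ac NaBu and H4K12ac NaBu against untreated, then H3K18pr, H4K12pr, H3K18bu and H4K12bu against acetyl. As reported, members numbered 0, 2, 1, 3, 0, 3, 5 and 1, and genes 0, 3247, 551, 12922, 1, 4712, 7608 and 392. With the strongest 8158 regions of each list (only 4 members tested), members numbered 1 each for the 4 treatment comparisons (all lower), 1 each for H3K18pr and H4K12pr (higher), and 0 for H3K18bu and H4K12bu, and genes 689, 2031, 2279, 2530, 1062, 1811, 1032 and 46. With libraries centred on their median, members numbered 0 for H3K18ac NaBu, 6 for H4K12ac NaBu (all higher), 3 for H3K18bu (2 higher, 1 lower) and 0 for H4K12bu. Genes numbered 2, 1130, 166, 3706 (3096 higher), 36 and 2148 (1070 higher) for the first 6 comparisons, 6056 for H3K18bu (5934 higher, against 1 of 7608 as reported) and 9 for H4K12bu. At equal total coverage, an alternative chosen after seeing the data, members numbered 0 for H4K12ac NaPr, 0 for H4K12ac NaBu, 1 for H4K12pr and 2 for H3K18bu, and genes 209 for H4K12ac NaPr, 96 for H3K18ac NaBu, 2648 for H4K12ac NaBu, 502 for H4K12pr, 3343 for H3K18bu and 1438 for H4K12bu. Fitting 4 libraries alone gave 0 members for H3K18ac NaBu, H4K12ac NaBu and H4K12bu, and 9620, 0, 3236, 0 and 0 genes for H4K12ac NaPr, H3K18ac NaBu, H4K12ac NaBu, H3K18pr and H4K12bu. A pseudocount of 1000 bp gave 0 members for H4K12bu and 1, 7004, 2293, 64, 7900, 3392 and 0 genes for H3K18ac NaPr, H4K12ac NaPr, H3K18ac NaBu, H3K18pr, H4K12pr, H3K18bu and H4K12bu. Without the coverage filter 14 genes were called for H3K18ac NaPr and 58 for H3K18pr. Regions at q under 0.05 gave 2 members for H3K18ac NaBu (both lower, where the 1 reported was higher), 5 for H4K12ac NaBu (all lower) and 0 for H4K12bu. Without regions over input peaks there were 0 for H3K18ac NaBu and 0 for H4K12bu, and with 1 kb flanks 1 for H4K12ac NaPr and 0 for H3K18ac NaBu. Same-numbered libraries correlated at -0.11 to 0.30 in their deviations, which cannot decide whether they shared a preparation. The replicate block gave 4901 genes for H4K12ac NaPr, 1121 for H3K18ac NaBu and 1457 for H4K12bu, and lost none of the 15 calls on members, and it added SI as lower in H4K12pr against H4K12ac (-1.90, adjusted p = 0.0476).

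Start-site counts moved as follows. With an overlap of at least 100 bp, 2 members were occupied in untreated H3K18ac only and 1 in untreated H4K12ac only against NaPr. With the GENCODE 5′ end, 2 were occupied in untreated H3K18ac only against NaPr. With equal numbers of regions, counts were 1 for untreated H4K12ac against NaPr, 0 for H3K18ac NaBu and 1 for untreated H3K18ac against each other, 1 for H3K18pr only, 0 for H3K18ac against H3K18bu and 0 for H4K12ac against H4K12bu. With the start site base itself, counts were 0 for untreated H4K12ac against NaPr, 0 and 1 for H3K18ac NaBu and untreated, 0 for untreated H4K12ac against NaBu, 1 for H3K18ac against H3K18bu and 0 for H4K12ac against H4K12bu. At q under 0.05, H3K18ac NaBu only and H4K12ac against H4K12bu gave 0, and without regions over input peaks H4K12pr only gave 0.

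Leaving out 1 library, where the lone library left was assumed to vary like the other groups, gave members called of 1 to 1 for H4K12ac NaPr, 0 to 0 for H3K18ac NaBu, 2 to 5 for H4K12ac NaBu, 1 to 3 for H4K12pr, and 0 to 4 for both butyryl comparisons. Genes called ran from 213 to 1933, 0 to 1842, 6461 to 14172, 696 to 3208, 0 to 7499 and 0 to 7843 in the same order, and from 0 to 52 for H3K18pr. Start-site counts ran from 1 to 2 for untreated H3K18ac against NaPr, 1 to 5 for H3K18ac NaBu and 0 to 1 for untreated H3K18ac against each other, 0 to 1 for H4K12ac NaBu and 1 to 2 for untreated H4K12ac against each other, 0 to 2 for H3K18pr only, 1 to 4 for H4K12pr only, 3 to 7 for H3K18ac against H3K18bu and 1 to 3 for H4K12ac against H4K12bu.

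Among the 15 calls on members, directions turned for VIL1 in H4K12ac NaBu against untreated (1.06 with equal numbers, 1.83 centred and 1.38 at equal total coverage), and, centred, for ALPI (1.38), CDHR5 (0.22) and VIL1 (0.77) in H3K18bu against H3K18ac. Depth was not recovered for NaBu libraries, so an empty window there was not detectable as marked at that depth.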
